A study of Mus musculus with 8 samples.

Results

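Bipolar cells are the interneurons that carry signals from rods and cones to the inner retina, and they are among the last retinal cell types to form. The genes described here are 9 transcription factors known from these cells, namely Isl1, Bhlhe23, Prdm8, Vsx1, Irx5, Irx6, Bhlhe22, Lhx3, and Lhx4. They were taken by name, and each was found as 1 gene among the 21828 genes measured. At P8, all 9 were higher in the Cd73-negative cells than in the Cd73-positive cells of the same retinas, with a level in the positive cells between 6.82% (Irx6) and 16.5% (Prdm8) of that in the negative cells. Their courses before P8 differed widely. Vsx1 and Bhlhe23 were near or at 0 at P2 and above 100 FPKM in the negative cells at P8, Isl1 was high at E15 and lowest at P2 within each fraction, and Irx5 was lower in the negative cells at P5 and P8 than at P2.

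The choice of a bipolar fate depends on general transcription factors, and further factors then divide the cells into rod bipolar cells, ON cone bipolar cells, and OFF cone bipolar cells. ON bipolar cells respond to light through the glutamate receptor Grm6 and the proteins that act with it. Several of the factors that shape these subtypes are also used by other retinal neurons, such as ganglion and amacrine cells, so their RNA by itself does not name a cell type.

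RNA was sequenced from retinas of slc:ICR mice, with no mutation or treatment stated, in 8 libraries, with 1 library per condition: whole retinas at E15 and E18, and cells sorted at P2, P5, and P8 from pooled retinas by the surface protein Cd73 (the product of Nt5e), which marks rod precursors and rods. The sorted fractions are called Cd73PC (positive) and Cd73NC (negative). Cd73NC is a mixture of bipolar, amacrine, and horizontal cells, Müller glia, progenitors, and what remains of other types, so fewer cells of a type and less RNA per cell cannot be told apart in any value below. No condition had a replicate, so no difference could be set against a replicate error and no test between conditions was possible. Values are FPKM, the level of a gene per length of transcript and per mapped fragments, and the bounds given with them are the uncertainty that Cufflinks estimated within a library. "Past 1.5-fold" below refers to the ratio of FPKM + 1 between a pair of libraries.

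The libraries followed their labels in most markers. At P2, P5, and P8, Nt5e was 2.43, 31.4, and 9.38 FPKM in Cd73NC and 97.3, 131, and 124 FPKM in Cd73PC, and all 10 rod genes examined were lower in Cd73NC at each of these stages. The rod genes in Cd73NC had a median of 4.14 FPKM at P2, 50.3 FPKM at P5, and 69.7 FPKM at P8, so rod RNA was present there. Of 21 genes of bipolar cell function, 19 were past 1.5-fold higher and 1 lower in Cd73NC at P8, beside 18.6% and 7.54% of all genes. In Cd73NC at P8, the FPKM of 7 of the 9 factors lay above its own upper bound (for Vsx1, 153 with bounds of 142 to 149), so the bounds do not enclose these values. The depth relative to E18 ranged from 0.965 (E15) to 1.62 (Cd73PC at P2), and the absolute depth is unknown.

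The sequence before the gene start is shown for 3 factors, Vsx1 and Bhlhe23 because they were near or at 0 in both fractions at P2 and differed most from P2 to P8, and Isl1 because it had the highest level of the 9. Each is the 250 bases upstream of the gene start in RefSeq (table of GRCm38.p6), read 5′ to 3′ on the strand of the gene, and was placed on NCBIM37 (mm9) by an exact match that occurred once on its chromosome. They lie on the minus strand at chr2:150514874-150515123 (Vsx1), chr2:180511606-180511855 (Bhlhe23), and chr13:117099897-117100146 (Isl1). Capitals mark matches to 4 motifs searched on both strands, TAATTA (a core that many homeodomain proteins bind), TAATCC (bound by the Otx2 and Crx class), and the E-boxes CATATG and CAGCTG (bound by bHLH proteins).
Vsx1: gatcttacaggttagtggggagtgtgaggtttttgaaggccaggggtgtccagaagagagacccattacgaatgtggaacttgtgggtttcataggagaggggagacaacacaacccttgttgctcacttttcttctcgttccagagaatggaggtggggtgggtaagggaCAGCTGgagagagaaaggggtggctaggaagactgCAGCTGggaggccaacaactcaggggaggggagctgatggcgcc
Bhlhe23: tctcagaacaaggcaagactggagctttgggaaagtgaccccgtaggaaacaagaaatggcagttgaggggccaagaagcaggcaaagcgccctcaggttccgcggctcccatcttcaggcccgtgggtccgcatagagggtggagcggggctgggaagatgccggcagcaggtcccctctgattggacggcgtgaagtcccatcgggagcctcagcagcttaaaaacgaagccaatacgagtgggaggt
Isl1: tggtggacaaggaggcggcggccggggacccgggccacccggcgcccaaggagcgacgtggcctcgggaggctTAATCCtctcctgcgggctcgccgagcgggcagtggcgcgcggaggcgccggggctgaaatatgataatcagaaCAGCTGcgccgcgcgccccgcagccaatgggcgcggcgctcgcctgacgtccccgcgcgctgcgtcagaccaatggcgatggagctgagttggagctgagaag
Counted back from the base before the start as -1, CAGCTG lay at -79 to -74 and at -44 to -39 of Vsx1 and at -103 to -98 of Isl1, and TAATCC lay at -177 to -172 of Isl1. These matches did not overlap each other. The stretch before Bhlhe23 held none of the 4 motifs. The promoter table held 6 of the 9 factors with 7 starts (Lhx3 has 2), and the remaining motif match was a CAGCTG at -217 to -212 of Prdm8. CAGCTG was thus found in 3 of the 7 stretches, against 13.1% of 32536 RefSeq promoters of the same length, and TAATCC in 1, against 6.25%. TAATTA (4.84% of all promoters) and CATATG (3.42%) were in none of the 7. The stretch before Isl1 was 71.2% G and C and that before Vsx1 54.4%, beside a median of 52.4% over all promoters. The matches are descriptions of letters in these windows, and no binding was measured.

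Isl1, Bhlhe23, and Prdm8 are known for roles that include rod bipolar or ON bipolar cells. Isl1 (chr13:117088478-117099896, minus strand, 6 exons) encodes a LIM homeodomain protein needed by retinal ganglion cells and bipolar cells, and it is also made in starburst amacrine cells. Its level was 69.7 FPKM at E15 and 26.4 at E18 in whole retina. At P2, P5, and P8, it was 4.79, 26.8, and 294 in Cd73NC and 0.776, 4.31, and 29.6 in Cd73PC. The course had a high level at E15, low levels in both fractions at P2, and its highest level in Cd73NC at P8, which was 61.5 times that at P2 and 4.22 times that at E15. In order of level, Cd73NC at P8 came before E15, and the bounds of Cd73PC at P8, Cd73NC at P5, and E18 overlapped between neighbors. Between E15 and E18, Isl1 was lower by 1.37 on the log2(FPKM + 1) scale (0.378 times the E15 FPKM), and 41 of the 21815 genes compared had a lower ratio. Of the 10 ganglion cell genes examined, 5 were past 1.5-fold lower and 2 higher at E18, beside 2.09% and 4.61% of all genes. The summed level of these 10 was 1013 FPKM at E15, 624 at E18, 24.3 in Cd73NC at P2, 13.6 at P5, and 4.54 at P8. The part of ganglion cells in the Isl1 values was not tested. Of the 4 starburst amacrine genes, Chat, Slc18a3, and Slc5a7 were listed at 0 in both fractions at P8. Megf10, which other cells also make, was 7.401 FPKM in Cd73NC and 0.999 in Cd73PC at P8. The part of starburst amacrine cells in the Isl1 values was not tested.

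Bhlhe23 (chr2:180509086-180511605, minus strand, 1 exon) encodes a basic helix-loop-helix (bHLH) protein needed for rod bipolar cells to mature. It was 0.799 FPKM at E15 and 0.114 at E18, and it was listed at 0 in both fractions at P2. Its later levels were 18.1 (P5) and 134 (P8) in Cd73NC and 2.56 (P5) and 15.4 (P8) in Cd73PC. Cd73NC at P8 was 7.37 times the level at P5, and no fold is given against P2. The bounds of Cd73NC at P5 and Cd73PC at P8 overlapped, and the P5 and P8 libraries were all above E15, E18, and P2. The bounds at E15 (0.517 to 1.09) and E18 (0.0263 to 0.210) did not overlap, both at levels under 1.1 FPKM.

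Prdm8 (chr5:98609888-98616467, plus strand, 4 exons) encodes a PR domain protein needed for rod bipolar cells and for some OFF cone bipolar cells. Its levels were 3.50 FPKM at E15 and 9.39 at E18. Prdm8 in Cd73NC was 16.4 (P2), 29.5 (P5), and 129.8 (P8), and the Cd73PC levels in that order were 12.4, 9.89, and 21.5. It was above 1 FPKM in every library and had the smallest difference between the fractions of the 9 factors at P5 and P8. From P2 to P5, Prdm8 was higher by 0.80 on the log2(FPKM + 1) scale in Cd73NC and lower by 0.30 in Cd73PC, where it was short of 1.5-fold. The bounds were apart in each fraction, narrowly so in Cd73PC (10.92 to 13.4 at P2 and 8.58 to 10.90 at P5). At P8 it was higher than at P5 in both, by 2.103 in Cd73NC and 1.04 in Cd73PC.

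Vsx1, Irx5, Irx6, and Bhlhe22 are known from cone bipolar cells. Vsx1 (chr2:150506440-150514873, minus strand, 5 exons) encodes a paired-like homeodomain protein and is needed for cone bipolar cells, mainly OFF types, to mature. It was 0.0612 FPKM at E15 and 0.0590 at E18. At P2, P5, and P8, it was 0.00119, 9.28, and 153 in Cd73NC and 0.0122, 1.06, and 11.7 in Cd73PC. The 4 libraries before P5 had overlapping bounds that all began at 0, and the 4 later ones were apart from each other and from these. Cd73NC at P8 was 16.4 times the level at P5, the largest such fold of the 9 factors, and no fold is given against the near-zero level at P2. The course of Vsx1 was close to that of Bhlhe23, with a Pearson r of 0.99 over the 8 libraries on the log2(FPKM + 1) scale, the highest of the 36 pairs of factors. Correlations here are descriptions over 8 libraries in which the fractions of a stage come from the same retinas.

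Irx5 and Irx6 encode Iroquois homeodomain proteins, and both are needed in subsets of OFF cone bipolar cells. They lie in a cluster on chromosome 8 with Irx3, Irx5 at chr8:94881695-94885355 (3 exons) and Irx6 at chr8:95198301-95203979 (6 exons), both on the plus strand, 313 kb apart and with Irx3 556 kb before Irx5. Irx5 was 8.79 FPKM at E15 and 23.0 at E18. Irx5 in Cd73NC was 33.0 (P2), 17.9 (P5), and 13.9 (P8), and the Cd73PC levels in that order were 6.28, 3.17, and 1.16. Its bounds were apart between all neighbors in order of level, from Cd73NC at P2 down to Cd73PC at P8. Irx5 was the factor with the highest level in Cd73NC at P2 and the lowest at P8, where it stood at 0.421 times its P2 level.

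Irx6 was 10.2 FPKM at E15 and 10.4 at E18. At P2, P5, and P8, it was 5.96, 12.3, and 55.1 in Cd73NC and 1.51, 2.31, and 3.76 in Cd73PC. Cd73NC at P8 was 9.25 times the P2 level, and the bounds of Cd73NC at P5, E18, and E15 overlapped between neighbors. The neighbors in the cluster thus had opposite courses in Cd73NC, Irx5 with its highest level at P2 and Irx6 with its highest at P8. Irx3 differed from both, with 4.99 FPKM at P2, 2.17 at P5, and 5.11 at P8. The plot of the 3 Irx genes shows these values side by side. Irx1, Irx2, and Irx4, which lie on chromosome 13, were between 4.83 and 24.5 FPKM at E15 and below 0.36 in all 6 sorted libraries.

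**Figure D1:**
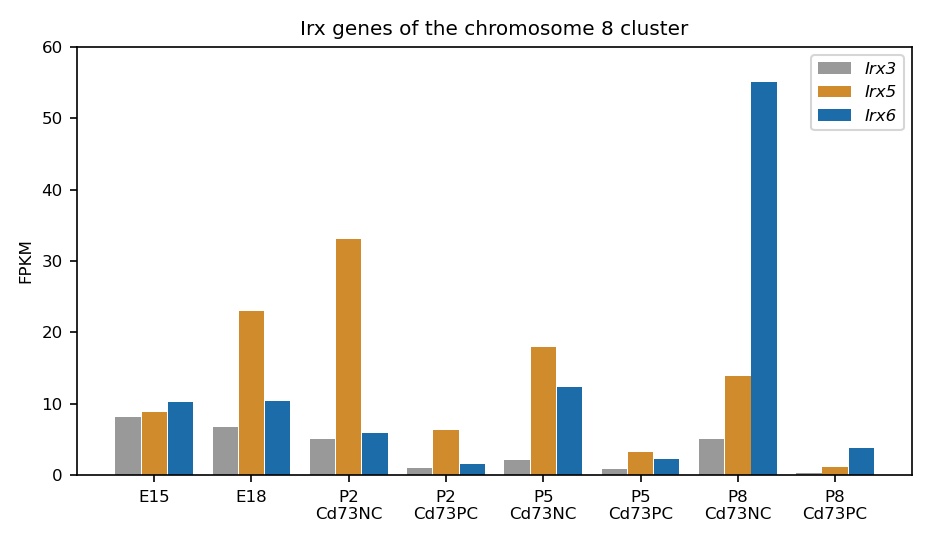
FPKM (vertical axis) of Irx3, Irx5, and Irx6 in the 8 libraries (horizontal axis), 1 bar per gene and library, with no error bars because each condition had 1 library. Irx5 is the tallest bar at E18, P2, and P5 in Cd73NC, and Irx6 is the tallest in Cd73NC at P8, at 55.1 beside 13.9 for Irx5 and 5.11 for Irx3.

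Bhlhe22 (chr3:17954325-17957514, plus strand, 1 exon) encodes a bHLH protein needed for some OFF cone bipolar cells and for some amacrine cells. It was 6.98 FPKM at E15 and 16.2 at E18. Bhlhe22 in Cd73NC was 20.1 (P2), 23.1 (P5), and 40.1 (P8), and the Cd73PC levels in that order were 6.78, 3.73, and 5.17. Bhlhe22 was present in every library and had a narrow range in Cd73NC, where P8 stood at 2.00 times P2 and the bounds at P2 and P5 overlapped. Of 10 amacrine genes, 8 were found by the symbols searched. Tfap2a and Tfap2b, the latter also on the horizontal cell list, were not found. Most of the 8 moved the other way in Cd73NC. From P2 to P5, 5 were past 1.5-fold lower and 2 higher, and from P5 to P8, 6 were lower and 0 higher. Their sum was 85.1 FPKM at P2, 62.2 at P5, and 14.1 at P8. Slc6a9 made up 6.56, 40.7, and 10.4 of it, and was 50.7 in Cd73PC at P8. The part of amacrine cells in the Bhlhe22 values was not tested.

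Lhx3 and Lhx4 encode LIM homeodomain proteins close to each other in sequence, best known from motor neurons and the pituitary, and both are made in bipolar cells. Lhx3 (chr2:26055732-26062076, minus strand, 6 exons) was 1.57 FPKM at E15 and 1.58 at E18. At P2, P5, and P8, it was 0.808, 15.0, and 74.8 in Cd73NC and 3.11, 2.60, and 5.13 in Cd73PC. Lhx4 (chr1:157548824-157589157, minus strand, 6 exons) was 2.95 FPKM at E15 and 3.98 at E18. Lhx4 in Cd73NC was 5.39 (P2), 37.2 (P5), and 81.2 (P8), and the Cd73PC levels in that order were 5.79, 7.09, and 9.18. Both had their highest levels in Cd73NC at P8 and the next highest in Cd73NC at P5. Their courses were alike, with a Pearson r of 0.96 over the 8 libraries, but their levels at P2 were not. Lhx3 at P2 was the only value of the 9 factors that was past 1.5-fold higher in Cd73PC than in Cd73NC at any stage, with bounds of 0.521 to 1.09 in Cd73NC and 2.45 to 3.73 in Cd73PC, whereas the bounds of Lhx4 overlapped between the fractions at P2.

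**Figure D2:**
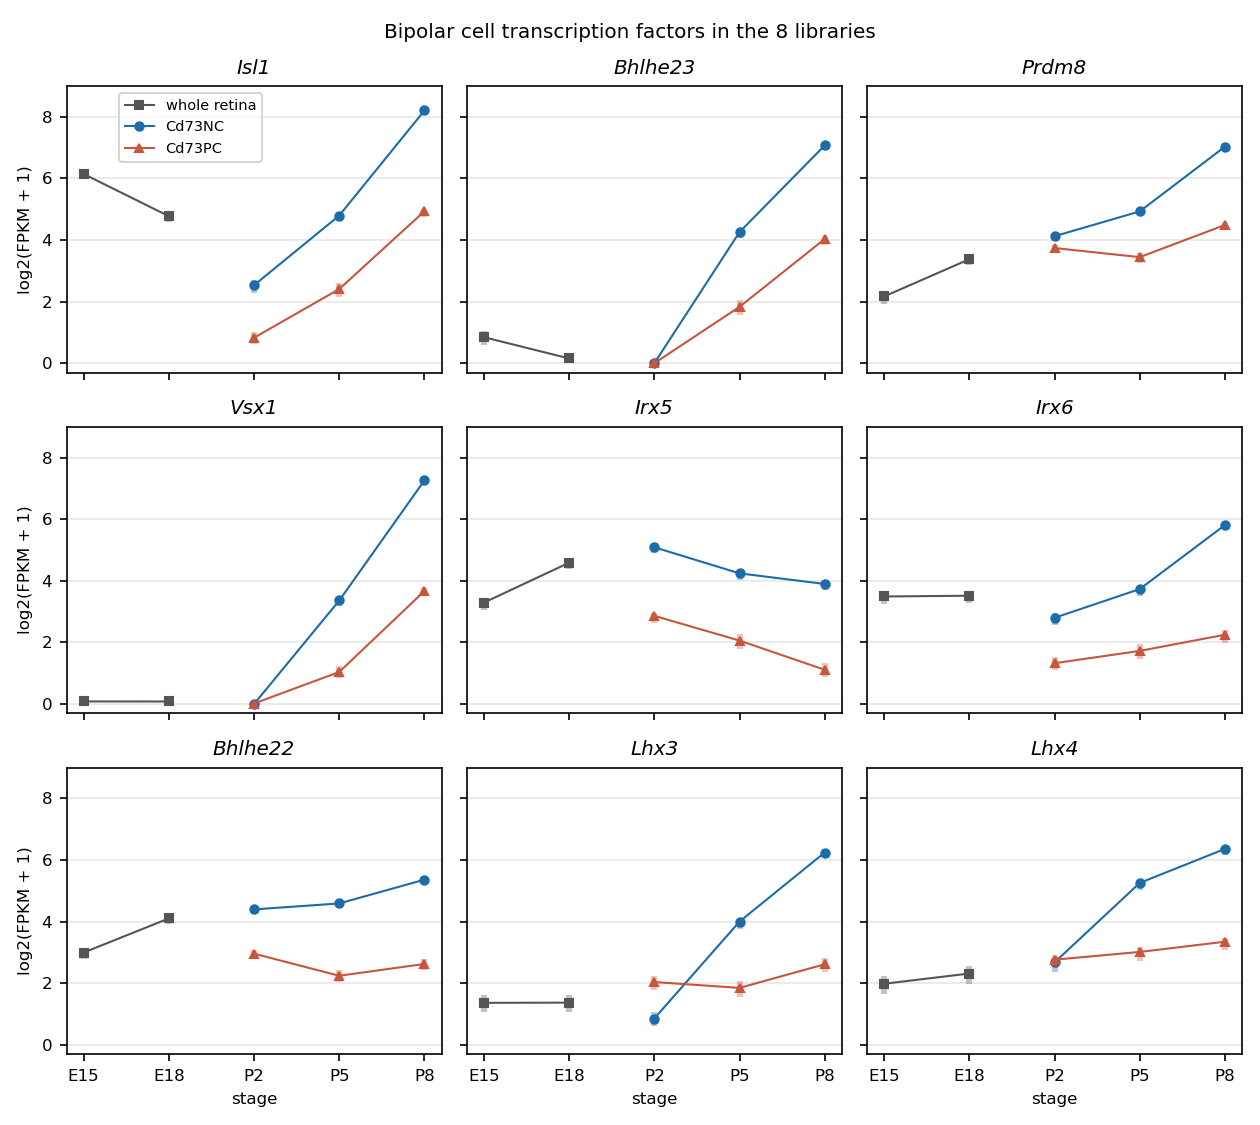
Level of each of the 9 factors (log2(FPKM + 1), vertical axis) by stage (horizontal axis) in whole retina (squares), Cd73NC (circles), and Cd73PC (triangles), with thick pale bars for the bounds that Cufflinks gave. Vsx1 and Bhlhe23 leave 0 after P2, Isl1 is lowest at P2 within each fraction, Irx5 has its highest point in Cd73NC at P2, and every Cd73NC point at P5 and P8 lies above the Cd73PC point of its stage.

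The comparison of Cd73NC with Cd73PC asks which genes set rod precursors apart from the other cells of the same retina. At P2, 4 of the 9 factors (Irx5, Isl1, Irx6, and Bhlhe22) were past 1.5-fold higher in Cd73NC, where 14.4% of all genes and 25% of those at 1 FPKM or more in either library were, and 1 (Lhx3) was lower, where 8.56% were. The median log2 ratio of the 9 was 0.38, and that of all genes was 0. The range ran from -1.18 (Lhx3) to 2.23 (Irx5), and 20 of 21817 genes had a higher ratio than Irx5. Vsx1, Bhlhe23, and Lhx4 had ratios between -0.09 and 0 with overlapping bounds, and Prdm8 stood at 0.38 with bounds apart.

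At P5, all 9 were past 1.5-fold higher in Cd73NC, where 15.5% of all genes and 27% of those at 1 FPKM or more were (7.02% of all were lower), with a median log2 ratio of 2.24 beside 0 over all genes. Here 8 of the 9 lay close together, from 2.01 (Irx6) to 2.43 (Bhlhe23), and Prdm8 was at 1.48. The level in Cd73PC was a median of 17.3% of that in Cd73NC and ranged from 11.4% (Vsx1) to 33.6% (Prdm8).

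At P8, all 9 were again past 1.5-fold higher, where 18.6% of all genes and 31.3% of those at 1 FPKM or more were (7.54% of all were lower), with a median log2 ratio of 3.04 beside 0.02 over all genes. The ratios ran from 2.54 (Prdm8) to 3.63 (Lhx3), and the median level in Cd73PC was 10.1% of that in Cd73NC. Among 21818 genes, 1 had a higher ratio than Lhx3, 2 than Vsx1, 4 than Irx6, and 8 than Isl1, while 33 were above Bhlhe23, 37 above Lhx4, 104 above Irx5, 119 above Bhlhe22, and 232 above Prdm8. Grm6 and the calcium-binding protein Scgn, with log2 ratios of 3.41 and 3.39, were among those that stood between Irx6 and Isl1. Each of the 9 factors had bounds that were apart between the fractions at P5 and P8, as did 38.3% and 43.3% of all genes.

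After quantile normalization of the 8 libraries, the genes past 1.5-fold at P5 split into 2367 higher and 2268 lower in place of 3392 and 1531, and at P8 into 2758 and 2669 in place of 4051 and 1644. Under that scaling the median of genes at 1 FPKM or more was 0.21 lower at P5 and 0.27 lower at P8. The count of factors stayed at 9 higher at both stages.

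**Figure D3:**
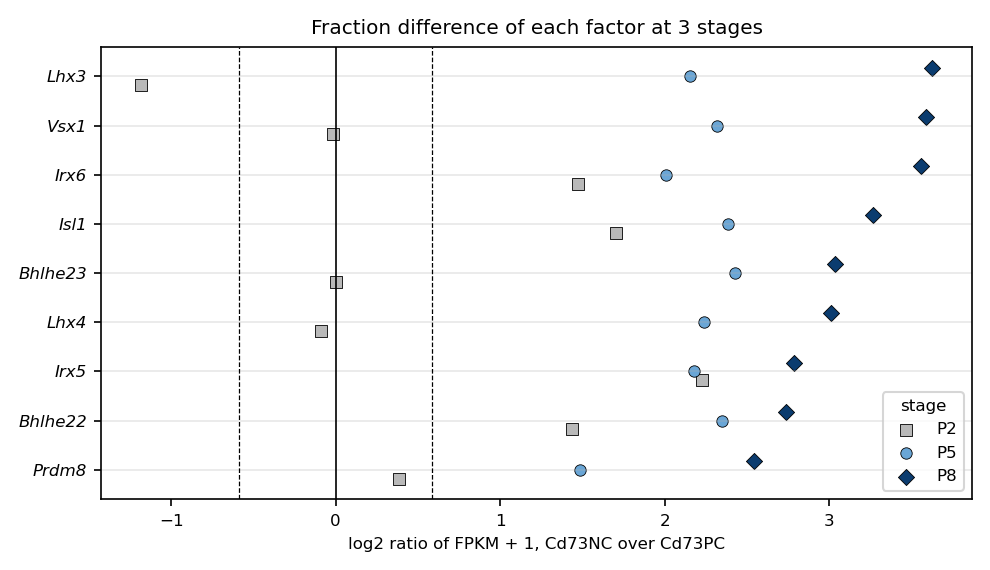
Log2 ratio of FPKM + 1, Cd73NC over Cd73PC (horizontal axis), for each of the 9 factors (vertical axis) at P2 (squares), P5 (circles), and P8 (diamonds), with dashed lines at 1.5-fold. The P2 points spread from -1.18 to 2.23, the P5 points of all factors but Prdm8 lie between 2.01 and 2.43, and the P8 points lie between 2.54 and 3.63.

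Markers of other cells also differed between the fractions. At P8, 7 of 8 Müller glia genes, 9 of 10 progenitor genes, 2 of 8 amacrine genes, and 2 of 5 horizontal cell genes were past 1.5-fold higher in Cd73NC. Of all genes, 18.6% were higher (31.3% of those at 1 FPKM or more in either library) and 7.54% lower. Of the amacrine genes, 1 (Slc6a9) was past 1.5-fold lower. The 10 rod genes were lower, with a median level in Cd73PC of 1523% of that in Cd73NC. Progenitor genes summed to 124 FPKM in Cd73NC at P8, amacrine genes to 14.1, and Müller glia genes to 1280. Of the horizontal cell genes, Prox1, which some bipolar and amacrine cells also make, was 166 FPKM, and Onecut1, Lhx1, and Calb1 were below 0.1. The part of these cells in the values of the 9 factors was not tested.

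Between P2 and P5 in Cd73NC, 7 of the 9 factors were past 1.5-fold higher at P5, where 7.93% of all genes and 13.1% of those at 1 FPKM or more were, and Irx5 was lower, where 9.52% were. The median log2 ratio was 2.26 beside 0 over all genes. Bhlhe23, Vsx1, and Lhx3 had the largest differences, of 4.26, 3.36, and 3.15, and on a scale without a pseudocount Lhx3 was 18.6-fold and Lhx4 6.91-fold higher. Bhlhe22 differed by 0.19, with overlapping bounds.

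Between P5 and P8 in Cd73NC, 8 of the 9 were past 1.5-fold higher at P8, where 8.47% of all genes and 14.1% of those at 1 FPKM or more were, and 0 were lower, where 7.78% were. The median log2 ratio was 2.103 beside 0 over all genes. The fold on FPKM was 16.4 for Vsx1, 11.0 for Isl1, 7.37 for Bhlhe23, 4.98 for Lhx3, 4.48 for Irx6, 4.41 for Prdm8, 2.18 for Lhx4, and 1.74 for Bhlhe22. Irx5 had a log2 ratio of -0.34, short of 1.5-fold, with bounds of 15.4 to 18.9 at P5 and 11.96 to 14.7 at P8. The P5 library of Cd73NC enters both of these steps, so they are not independent of each other. Lhx4 had the larger difference in the earlier step (2.58 and then 1.10), and Isl1 in the later one (2.26 and then 3.41).

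Genes of bipolar cell function, such as receptors, G proteins, and calcium-binding proteins, differed mostly in the later step. From P2 to P5 in Cd73NC, 15 of the 21 were higher and 2 lower, with a median log2 ratio of 1.35. From P5 to P8, 20 were higher and 0 lower, with a median of 3.23. Of all genes, 7.93% were higher and 9.52% lower in the earlier step, and 8.47% and 7.78% in the later one. The medians of the 9 factors were 2.26 and 2.103 in the same steps. Grm6 had a course like that of Vsx1, with 0 FPKM at P2, 6.58 at P5, and 162 at P8. The 18 other regulators known from bipolar cells had medians of opposite sign in the earlier and later steps, with 11 higher and 3 lower from P2 to P5 (median 1.09) and 4 higher and 8 lower from P5 to P8 (median -0.45).

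**Figure D4:**
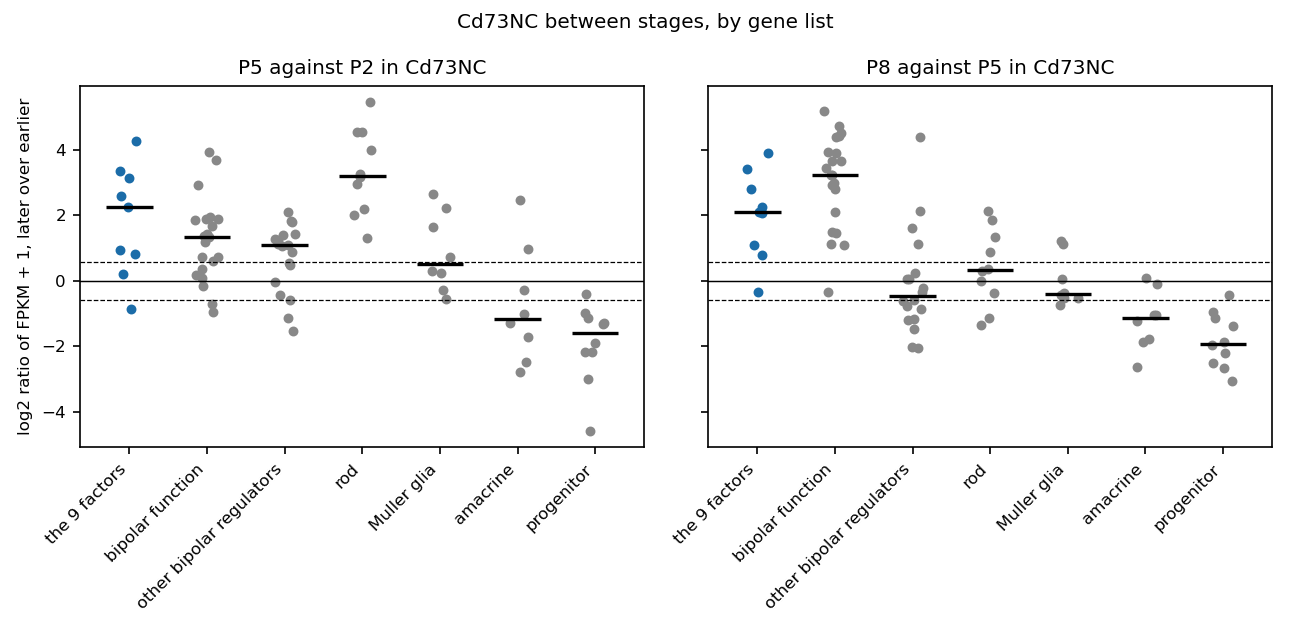
Log2 ratio of FPKM + 1 (vertical axis) in Cd73NC for P5 over P2 (left) and P8 over P5 (right), 1 point per gene, by gene list (horizontal axis), with black bars at the medians and dashed lines at 1.5-fold. The 9 factors have medians of 2.26 and 2.103, bipolar function genes 1.35 and 3.23, other bipolar regulators 1.09 and -0.45, and progenitor genes -1.59 and -1.92.

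Other cell types moved in Cd73NC over the same stages. Progenitor genes were past 1.5-fold lower in 9 of 10 cases in each step, with summed levels of 1863 FPKM at P2, 480.3 at P5, and 124 at P8. Amacrine genes were lower in 5 of 8 cases from P2 to P5 (2 were higher) and in 6 of 8 from P5 to P8 (0 were higher). Müller glia genes summed to 1100.0, 1544, and 1280 FPKM, and from P2 to P5, 4 of 8 were higher and 0 lower (median log2 ratio 0.51), and from P5 to P8, 2 were higher and 1 lower (median -0.42). Of all genes, 7.93% were higher and 9.52% lower from P2 to P5, and 8.47% and 7.78% from P5 to P8. Whether the shifts in the other cells bear on the levels of the 9 factors was not tested.

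In Cd73PC, no factor was above 29.6 FPKM (Isl1 at P8). From P2 to P5, 3 of the 9 (Bhlhe23, Isl1, and Vsx1) were past 1.5-fold higher, where 3.36% of all genes and 5.92% of those at 1 FPKM or more were, and Irx5 and Bhlhe22 were lower, where 8.57% were. The median log2 ratio was 0.25 beside 0 over all genes. From P5 to P8, 5 (Vsx1, Isl1, Bhlhe23, Prdm8, and Lhx3) were higher, where 3.31% of all genes and 5.94% of those at 1 FPKM or more were, and Irx5 was lower, where 4.78% were, with a median of 0.77 beside 0. Each of these comparisons shares a library with the ones between fractions, and the directions of Vsx1, Bhlhe23, Isl1, and Irx5 in Cd73PC were those seen in Cd73NC. For genes at 1 FPKM or more in Cd73NC at P8, the level in Cd73PC was taken as a percentage of that in Cd73NC. The median was 10.1% for the 9 factors (6.82% to 16.5%) and 14.2% for the bipolar function genes (8.83% to 382%). It was 18.8% for the other bipolar regulators (6.70% to 379%). It was 18.6% for the Müller glia genes (12.6% to 149%) and 18.7% for the progenitor genes (9.31% to 26.4%). The authors state that they sorted quickly and gave up some purity. Whether other cells in Cd73PC bear on these levels was not tested.

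The counts for Cd73PC between P2 and P5 moved with the scaling. After quantile normalization 4 factors were higher and 0 lower, because Irx6 passed 1.5-fold (0.63) and Bhlhe22 (-0.47) and Irx5 (-0.54) no longer did, and the genes past 1.5-fold split into 1109 higher and 1169 lower in place of 732 and 1870. Lhx3 then turned from -0.19 to 0.05.

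Between E15 and E18 in whole retina, Irx5, Prdm8, and Bhlhe22 were past 1.5-fold higher at E18, where 4.61% of all genes and 7.59% of those at 1 FPKM or more were, with log2 ratios of 1.30, 1.21, and 1.11. Isl1 and Bhlhe23 were lower, where 2.09% were, with -1.37 and -0.69. The other 4 factors had overlapping bounds, with ratios of 0.33 for Lhx4 and 0.02 for Irx6 and still nearer to 0 for Vsx1 and Lhx3, and the signs of Irx6 and Lhx3 turned with the scaling. The median of the 9 was 0.02 beside 0 over all genes. After quantile normalization the genes past 1.5-fold were 782 higher and 656 lower, in place of 1005 and 457, and the same 5 factors were past it.

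The factors did not form a single pattern over the 8 libraries. Irx5 stood apart, with a Pearson r of -0.13 with Vsx1 and -0.18 with Bhlhe23, and its highest r was 0.79 with Bhlhe22. Isl1 was closest to Irx6 (0.89). By the same measure over 10851 genes that reached 5 FPKM in at least 1 library, the genes most like Vsx1 were Gsg1 (r = 0.997), Grm6 (0.997), and Otor (0.996). Those most like Bhlhe23 were Otor, A730046J19Rik, and Scgn (each 0.99), and those most like Irx5 were Gas1, Ehd2, and Rnaset2a (each 0.99). Bhlhe22 was most like Exoc2, Slc6a11, and Dab1, Irx6 like Shank2, Copg, and Tmem169, and Isl1 like Stk35 and Cntnap2. Lhx3 was most like Prickle2 and Adc, Lhx4 like Chadl, Slc35c1, and Tmcc3, and Prdm8 like Pcdhb11, Lysmd1, and Hexa, these last 6 factors all with an r between 0.97 and 0.99. Likeness over 8 libraries does not show shared control.

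Of 24 relatives and partners of the 9 factors, 10 were past 1.5-fold higher in Cd73NC at P8 and 2 lower. Of all genes, 18.6% were higher (31.3% of those at 1 FPKM or more in either library) and 7.54% lower. Lmo4 was 103 FPKM in Cd73NC at P8, beside 13.7 in Cd73PC. Ldb2, which encodes a partner of LIM homeodomain proteins, was 31.2 and 5.37. Ldb1, the main partner of these proteins, was 89.8 and 26.2, and it was above 26 FPKM in every library. Isl2, the closest relative of Isl1 and known from ganglion cells and cones, was 17.5 FPKM at E15 and 1.09 in Cd73NC at P8. Of the 18 other bipolar regulators, 15 were past 1.5-fold higher in Cd73NC at P8 and 3 lower. Zfhx4 and Fezf2 had log2 ratios between the fractions of 2.95 and 2.81, and Crx, Neurod1, and Prdm1 had -1.72, -1.84, and -1.84.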

How the data were processed

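Poly(A)-selected RNA from 8 samples of mouse retina, 1 per condition, was sequenced as single-end reads on an Illumina sequencer after random-primed cDNA synthesis, and the protocol is not described as stranded. Per the submitters' processing notes, CASAVA 1.8.2, bcl2fastq 1.8.4, TopHat2 2.0.8b, and Cufflinks 2.1.1 were used with build mm9. The authors deposited FPKM per gene with lower and upper bounds, which include no read counts. In 1428 to 2170 rows per library, and in 8 of the 72 values of the 9 factors (7 of them in Cd73NC at P8), the FPKM lies outside these bounds.

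Of 23021 rows, 796 small RNAs were left out by symbol, failed estimates (4 to 10 per library) were taken as missing, and rows of a symbol were summed, which left 21828 genes. Libraries were grouped by their labels, which give no batch. Pairs of libraries were compared on log2(FPKM + 1), and a gene was counted past 1.5-fold, the threshold the authors used, whose pseudocount is not stated. No test, SD, or p was possible with 1 library per condition. Relative depth was read from the steps of FPKM values below 0.3, and the depth behind a value is otherwise unknown. Deposited start positions are 0-based and are printed 1-based.

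The members and lists were chosen with earlier results of these data known. Genes named are the 9 factors, Nt5e, for each factor up to 3 genes with the most similar course, and from each list the closest relatives and those with the largest ratio at P8. Others, such as Prox1 and Megf10, were named after their values were seen. Some genes that this rule would name are not reported here. Alternatives were other pseudocounts, an FPKM filter, other scalings, a 2-fold threshold, non-overlapping bounds, and small RNAs kept. Python 3.11.15, numpy 2.4.6, pandas 2.3.3, and matplotlib 3.10.9 were used, and the code was tested on simulated data.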

Additional observations from a re-analysis of the deposited data

Results flagged for a closer look

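Lhx3 differed in direction between the fractions by stage. On the log2(FPKM + 1) scale, Cd73NC minus Cd73PC gave -1.18 at P2, then 2.15 at P5 and 3.63 at P8, with bounds apart at each stage. Prdm8 differed in direction between the fractions from P2 to P5, with a log2 ratio of 0.80 in Cd73NC and -0.30 in Cd73PC, again with bounds apart in each. In Cd73PC the difference was short of 1.5-fold, the gap between the bounds was narrow (upper bound 10.90 FPKM at P5, lower bound 10.92 at P2), the median of genes at 1 FPKM or more was -0.15, and the Prdm8 ratio was -0.14 after quantile normalization. Both were noted because the single library of each condition moved the opposite way, and neither difference was tested. The spread between animals is unknown for either gene.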

How the results depend on the processing

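Of 112 counts and medians of the 9 factors over all alternatives, 108 stayed within 1.5-fold of the value reported. The median log2 ratio between the fractions at P2 was 0.38 as reported, 0.99 without a pseudocount (8 factors with a value), and 1.44 with the FPKM filter (7 factors). With a 2-fold threshold, the factors past it were 5 in place of 8 between P2 and P5 in Cd73NC, and 3 in place of 5 in Cd73PC. In the Cd73NC step, 1530 of all 21817 genes were past 2-fold, in place of 3805 past 1.5-fold. Of 353 ratios of single factors, 23 moved, 12 with a pseudocount of 0.1 and 11 without one. Over all genes, the numbers past the threshold ranged from 1462 to 5695 as reported, 466 to 3250 at 2-fold, 4319 to 9448 by bounds that do not overlap, 3888 to 8624 without a pseudocount, and 3652 to 8300 with a pseudocount of 0.1. Leaving out a replicate was not run, since each condition had 1 library, and no pairing by replicate exists. The absolute depth is unknown, so no detection limit can be given for Vsx1 and Bhlhe23 at P2, where they were near or at 0.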

Other observations

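Some genes on the list of bipolar cell function were higher in Cd73PC than in Cd73NC at P2. Of the 21, 7 were past 1.5-fold higher in Cd73PC, where 8.56% of all genes were. The share of genes at 1 FPKM or more was not counted in this direction. In Cd73NC, 4 were higher, where 14.4% of all genes and 25% of those at 1 FPKM or more were. Gng13, a G protein subunit of ON bipolar cells, was 23.3 FPKM in Cd73PC and 0.995 in Cd73NC, and Pcp2 was 25.9 and 2.62. At P8, Gng13 was 22.2 in Cd73PC and 146 in Cd73NC, and Pcp2 was 84.7 and 468. Lrit3 was the gene of this list that was lower in Cd73NC at P8, at 4.80 FPKM beside 18.4 in Cd73PC. These genes were picked after their values were seen, and the differences were not tested.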
